A study of Bos taurus with 8 samples.

Results

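Heat shock chaperones of the cytosol and the mitochondrion were described in rumen epithelium of Holstein bulls that ate a high-grain diet with and without wood kraft pulp (WP). The set held 10 genes, chosen by name: HSPA1A, HSPH1, DNAJB1, HSPB1 and HSP90AA1 as chaperones whose transcripts heat and other stress induce, HSPA8, HSPA4 and HSP90AB1 as constitutive ones, and HSPD1 and HSPE1 as the mitochondrial chaperonin. Of these, 9 had a probe under their name among the 15008 probes of the bovine array, 1 probe each, and all 9 were well above background on all 8 arrays. DNAJB1, which delivers clients to HSP70, was not analysed here.

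The trial used 5 rumen-fistulated bulls of 7.4 ± 0.3 months and 215.2 ± 20.4 kg in a cross-over with no wash-out between diets. Both diets were high in grain. The control diet held corn flakes, and the WP diet had wood kraft pulp, a cellulose-rich fibre, in place of 50% of them, each fed for 14 days. Arrays of 4 of these calves, numbered 21, 23, 24 and 25, gave 4 control and 4 WP samples, and every group shared the high-grain feeding and the rumen fistula. A calf is compared with itself. The sources used here do not give the order of diets for each calf.

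Chaperones bind unfolded proteins and keep them from aggregating while they fold. In the cytosol, HSP70 proteins work with J-domain partners and with HSP110 proteins, which exchange their nucleotide, and hand clients on to HSP90. In the mitochondrial matrix HSPD1 forms a folding chamber that HSPE1 closes. The transcription factor HSF1 raises the inducible genes when unfolded proteins accumulate, as in heat or acid stress, while the constitutive genes serve everyday folding.

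Each gene was read by one 60-base probe, and the sequences below show how far the probes of close relatives differ. Capitals mark a longest run, of 4 bases, that the printed stretches of a pair have in common, for HSPA1A with HSPA8 and for HSP90AA1 with HSP90AB1; HSPD1 has no such partner. The probes of HSPA1A, HSP90AA1 and HSP90AB1 are given by their first 30 bases, the others whole, 5′ to 3′.
HSPA1A: gtagtatTCATgccaaactcaagctatttt
HSPA8: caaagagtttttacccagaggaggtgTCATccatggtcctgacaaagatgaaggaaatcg
HSP90AA1: aaggtaacttggagCAAGttttgtgaatgg
HSP90AB1: tCAAGccctctctctctccacgtttgacat
HSPD1: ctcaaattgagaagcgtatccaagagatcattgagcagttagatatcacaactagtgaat

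Over the whole probes, the longest run in common was 5 bases for HSPA1A and HSPA8 and 6 bases for HSP90AA1 and HSP90AB1. Probes were compared only with each other, not with the transcripts of the relatives. Short shared runs therefore do not show that a probe reads 1 relative alone, and binding to the other was not tested. The HSPA1A probe was assigned by the array design to 2 RefSeq mRNA records, and RefSeq (assembly ARS-UCD 2.0) lists HSPA1B as a synonym of HSPA1A, so near-identical HSP70 gene copies cannot be told apart by it. The array design places the probes, on bovine assembly UMD 3.1, at chr23:27331503-27331562 for HSPA1A, chr15:34219228-34219287 for HSPA8, chr21:68595906-68595965 for HSP90AA1, chr23:17873319-17873378 for HSP90AB1, chr12:29844105-29844164 for HSPH1 and chr7:46280726-46280785 for HSPA4. HSPD1 (chr2:86440516-86440575, minus strand) and HSPE1 (chr2:86451470-86451529, plus strand) are neighbours on opposite strands, with 10894 bases between their probes. The HSPB1 probe was taken from an expressed sequence tag that the design left unmapped. It was assigned to 0 RefSeq mRNA records, so the gene name of this probe rests on the array design alone. Which probes lie in coding sequence or in a UTR was not analysed here.

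Levels are log2 of the background-corrected signal minus the 75th percentile of the same array, so 0 is the signal of the 75th percentile. Levels are set against each other only within a probe. Sums over the markers of a cell type, given below, are compared only between arrays. They weigh the brightest probes most and do not measure amounts of cells. The 75th percentile lay between 198.9 and 322.3 signal units. Both ends were arrays of calf 21, the lowest on the WP and the highest on the control diet. On each array 62.1% to 79.9% of probes were well above background. The WP array of calf 24 had the highest share (71.3% at most elsewhere) and the highest median of negative control spots, 4.06 beside 1.20 to 1.90. All 7 basal epithelial markers (KRT5, KRT14, KRT15, TP63, ITGA6, ITGB4 and COL17A1) were well above background on all 8 arrays, as were 7 of the 9 suprabasal markers with a probe. So were 8 of 10 fibroblast, 7 of 8 endothelial and 4 of 7 macrophage markers. Most probes of any kind were well above background on each array, so these counts alone do not show which cell types were present. In bulk samples fewer cells of a type and less RNA per cell cannot be told apart.

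No chaperone gene passed the test between the diets. Of the 9 genes, 5 had a negative mean difference (WP minus control within a calf) and 4 a positive one, from -0.21 for HSPA8 to 0.22 for HSPA1A on the log2 scale. Their median was -0.033, beside 0.087 for 10200 tested genes, of which 35.6% were negative. In limma with calf as a block, 0 of 9 had an adjusted p under 0.05, and 0 of 9 had an unadjusted p under 0.05. Across the array the shares were 0% of 10236 probes at the adjusted threshold, with a smallest adjusted p of 0.658, and 6.99% (715 probes) at the unadjusted one. Of these 715, 25.0% were lower on the WP diet, and 63.6% of 528 with quantile scaling, which moved the median of all probes from 0.087 to -0.015. Relative to the first median, HSPA1A, HSPD1 and HSPE1 lay above it and the other 6 below it.

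**Figure D1:**
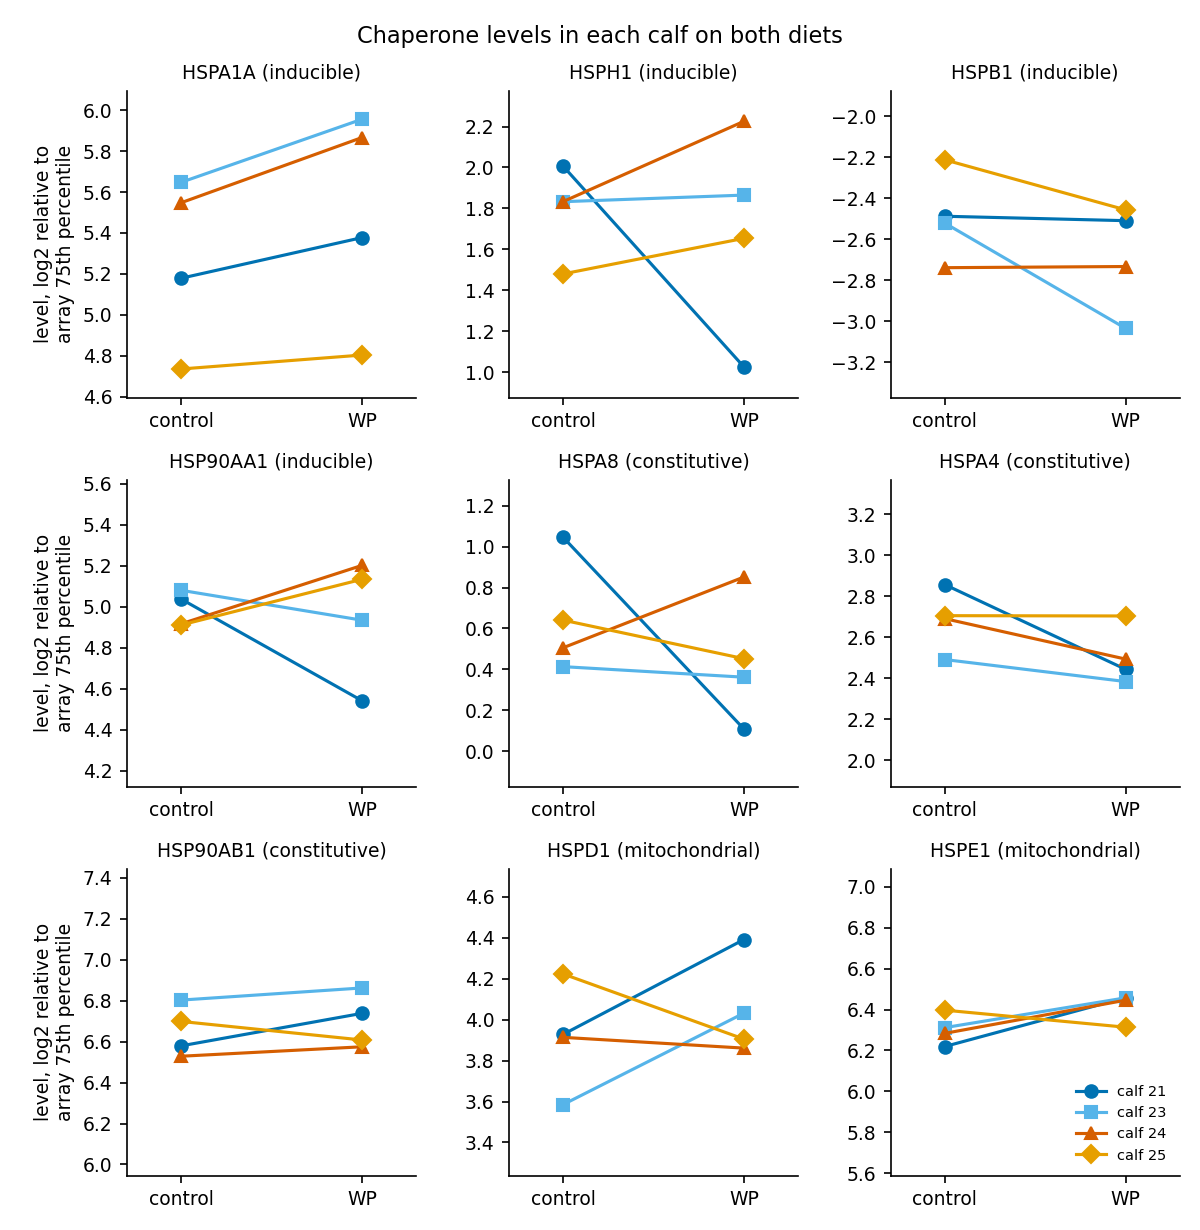
Level of each of the 9 chaperone genes on the control and the WP diet (log2 relative to the 75th percentile of the array), with 1 line per calf and the same length of vertical axis, 1.5 log2 units, in every panel. The lines of HSPA1A keep their order and all slope up, those of HSPH1 and HSPA8 cross, with calf 21 going from the highest control to the lowest WP value, and those of HSPE1 stay within 0.24.

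HSPA1A, the main stress-inducible HSP70, spanned more between calves than between the diets within a calf. On the control diet its levels were 5.18, 5.65, 5.55 and 4.74 in calves 21, 23, 24 and 25, and on the WP diet 5.38, 5.96, 5.87 and 4.80. Calf 25 was lowest and calf 23 highest on both diets, and the order of all 4 calves was the same on both, which held for 1 of 9 chaperones and for 4.56% of all probes. Calf means spanned 1.03 log2 units, from 4.77 to 5.80. The moderated F-test between calves gave an unadjusted p of 0.00440 and an adjusted p of 0.622 in limma, so this does not pass over all probes. It was the only one of the 9 with an unadjusted p under 0.05 between calves, beside 4.98% of all probes, and 1 of 10236 probes (0.00977%) passed the adjusted threshold. Calf 25 carried this: without it the unadjusted p was 0.0730 in limma, and the means of the other 3 calves lay between 5.28 and 5.80.

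Within calves HSPA1A was higher on the WP diet in 4 of 4, by 0.20, 0.31, 0.32 and 0.068. Its difference averaged 0.22 ± 0.12 (SD, n = 4), which is a WP/control signal ratio of 1.17, and 0.14 above the median of all probes. The limma adjusted p was 0.658. The exact two-sided sign-flip permutation test gave p = 0.13, the smallest that 4 calves allow. Of all probes, 12.0% were higher in 4 of 4 calves and 5.41% lower in 4 of 4. The levels of the diets overlapped for HSPA1A, and for all 9 genes, whereas 4.86% of all probes had no overlap. With normexp background correction HSPA1A gave 0.14. Compared within slide rows, where the diets come from different calves, it gave 0.52 in row 1 and -0.078 in row 2.

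HSPH1, an HSP110 protein that exchanges the nucleotide of HSP70, varied with calf 21. Control levels were 2.01, 1.83, 1.83 and 1.48 in calves 21, 23, 24 and 25, and WP levels were 1.03, 1.87, 2.23 and 1.65. Calf 21 thus had the highest control and the lowest WP level. The mean difference of -0.096 ± 0.61 (SD, n = 4) came from -0.98 in calf 21 against 0.032, 0.39 and 0.17 in the others, and without calf 21 it was 0.20 (limma adjusted p = 0.908 with all calves and 0.938 without calf 21). It was -0.26 without calf 24 and -0.19 without calf 25. The 95% interval of the difference ran from -0.74 to 0.55.

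HSP90AA1, the inducible form of cytosolic HSP90, had the narrowest control values of the inducible genes. They were 5.04, 5.08, 4.92 and 4.91 in calves 21, 23, 24 and 25, and the WP levels were 4.54, 4.93, 5.20 and 5.13. Calves 21 and 23 were lower on the WP diet, by -0.50 and -0.15, and calves 24 and 25 higher, by 0.29 and 0.22, so the mean was -0.033 ± 0.36 (SD, n = 4; limma adjusted p = 0.956). It was 0.12 without calf 21, 0.0040 without calf 23, -0.14 without calf 24 and -0.12 without calf 25.

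The probe named for HSPB1, a small heat shock protein that holds unfolded proteins in a refoldable state, was dim. Its processed signal was between 24.6 and 57.5 units. Control levels were -2.49, -2.52, -2.74 and -2.21 in calves 21, 23, 24 and 25, and WP levels were -2.51, -3.04, -2.73 and -2.46. The mean difference was -0.19 ± 0.24 (SD, n = 4; limma adjusted p = 0.679), with -0.51 in calf 23 and -0.24 in calf 25. Leaving out calf 23 gave -0.087. With normexp background correction it was 0.033 and with quantile scaling -0.52, so neither its size nor its direction is set.

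Among the constitutive genes, HSPA8, the constitutive cytosolic HSP70, had its highest control and lowest WP level in calf 21, as HSPH1 did. Control levels were 1.05, 0.41, 0.51 and 0.64 in calves 21, 23, 24 and 25, and WP levels were 0.11, 0.36, 0.85 and 0.45. Calf 21 differed by -0.94, and calves 23, 24 and 25 by -0.051, 0.35 and -0.19. The mean was -0.21 ± 0.54 (SD, n = 4; limma adjusted p = 0.769), 0.035 without calf 21 and -0.39 without calf 24.

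HSPA4, an HSP110-type partner of HSP70, was the one chaperone lower on the WP diet in 4 of 4 calves, beside 5.41% of all probes. Calf 25 barely differed. Control levels were 2.86, 2.49, 2.69 and 2.71 in calves 21, 23, 24 and 25, and WP levels were 2.44, 2.38, 2.49 and 2.70. The differences were -0.41, -0.11, -0.20 and -0.0015, with a mean of -0.18 ± 0.18 (SD, n = 4), a control signal 1.13 times as high. The limma adjusted p was 0.678, and the exact two-sided sign-flip permutation p was 0.13. Without calf 21 the mean was -0.10.

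HSP90AB1, the constitutive form of cytosolic HSP90, varied little. Control levels were 6.58, 6.80, 6.53 and 6.70 in calves 21, 23, 24 and 25, and WP levels were 6.74, 6.86, 6.57 and 6.61. All 8 lay within 0.33 log2 units. The mean difference was 0.043 ± 0.10 (SD, n = 4; limma adjusted p = 0.907), with a 95% interval from -0.25 to 0.33. It was 0.0050 without calf 21 and 0.088 without calf 25.

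The mitochondrial pair differed in spread. HSPD1 levels on the control diet were 3.93, 3.59, 3.91 and 4.22 in calves 21, 23, 24 and 25, and on the WP diet 4.39, 4.03, 3.86 and 3.91. Calves 21 and 23 were higher on the WP diet, by 0.46 and 0.45, and calves 24 and 25 lower, by -0.053 and -0.32. The mean was 0.13 ± 0.38 (SD, n = 4; limma adjusted p = 0.810), 0.29 without calf 25, 0.025 without calf 21 and 0.031 without calf 23.

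HSPE1, the lid of the chaperonin, had the tightest values of the 9. Control levels were 6.22, 6.31, 6.28 and 6.40 in calves 21, 23, 24 and 25, and WP levels were 6.46, 6.46, 6.45 and 6.31. Calf 25 was the highest control and the lowest WP array. The mean difference was 0.12 ± 0.14 (SD, n = 4), higher in 3 of 4 calves (limma adjusted p = 0.753), with a 95% interval from -0.19 to 0.42. It was 0.075 without calf 21 and 0.18 without calf 25.

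**Figure D2:**
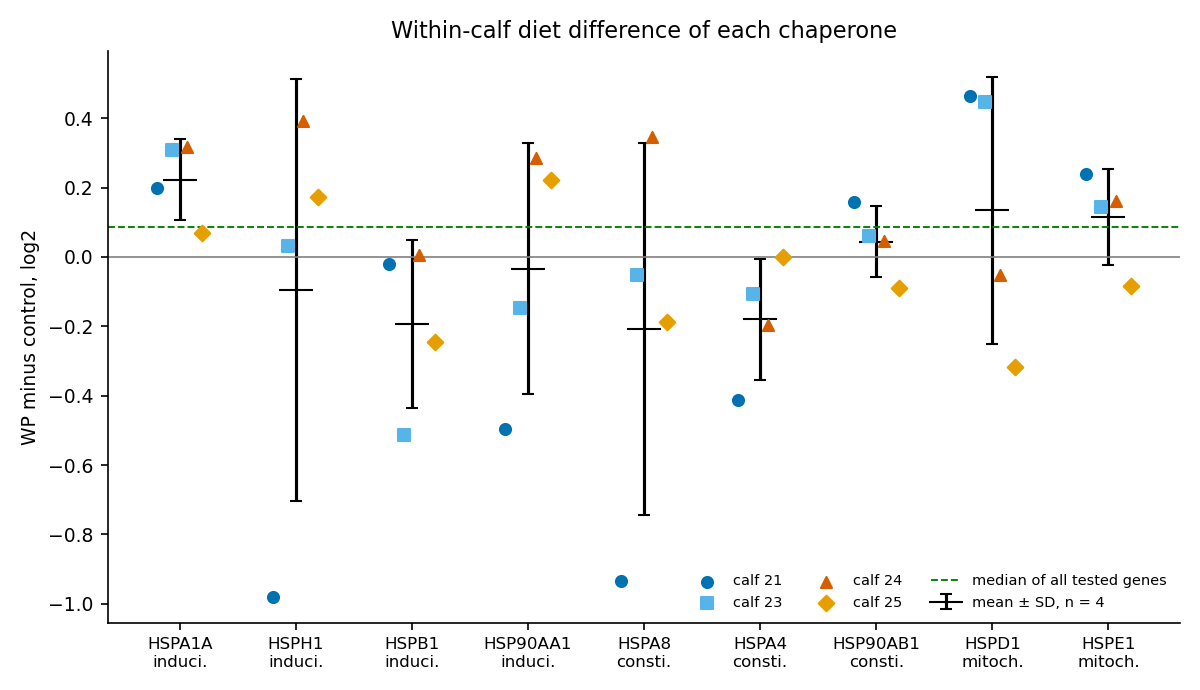
WP minus control (log2) of each chaperone gene in each of the 4 calves, with the mean ± SD as bars and the median of all tested genes, 0.087, as a dashed line. HSPA1A has all 4 points above 0 and HSPA4 all 4 below it, while HSPH1, HSP90AA1 and HSPA8 have calf 21 far below the other calves.

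Inducible and constitutive relatives were set against each other within each array, which leaves out the scaling. HSPA1A minus HSPA8 differed between the diets by 1.13, 0.36, -0.027 and 0.26 in calves 21, 23, 24 and 25, with a mean of 0.43 ± 0.50 (SD, n = 4). HSP90AA1 minus HSP90AB1 gave -0.65, -0.21, 0.24 and 0.31, with a mean of -0.077 ± 0.45. HSPH1 minus HSPA4 gave -0.57, 0.14, 0.59 and 0.18, with a mean of 0.084 ± 0.48. In calf 21 the inducible HSP70 was thus higher on the WP diet relative to its constitutive relative, and the inducible HSP90 and HSP110 lower. HSPD1 minus HSPE1 gave 0.22, 0.30, -0.21 and -0.23, a mean of 0.019 ± 0.28. By class, the median difference was -0.065 for the 4 inducible, -0.18 for the 3 constitutive and 0.13 for the 2 mitochondrial genes. These are descriptions without a test.

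The pairs of calves differed by the place of their arrays. The WP arrays of calves 21 and 23 and the control arrays of calves 24 and 25 lay in slide row 1. The other 4 lay in row 2 of the same slide. Slide row was inferred from the array barcode in the scanner headers, since the sample labels do not give it. Row was estimated beside diet and calf. Its estimate equals the difference in diet response between the pairs of calves, divided in 2, and row and pair cannot be told apart. The order of diets for each calf is not known here. A difference by diet order or feeding period could follow the same split and cannot be told apart either. A row difference below names this contrast, not slide position alone. HSPD1 was higher in row 1 by 0.32 (SE 0.11, unadjusted p = 0.0416, limma adjusted p = 0.371), with a mean diet difference of 0.45 in calves 21 and 23 and -0.19 in calves 24 and 25. HSPH1 gave -0.38 (SE 0.21, adjusted p = 0.501), HSP90AA1 -0.29 (SE 0.12, adjusted p = 0.413) and HSPA8 -0.29 (SE 0.21, adjusted p = 0.588). For HSP90AA1 all 4 row 1 arrays lay below all 4 row 2 arrays. The other 5 lay between -0.081 and 0.076, and between -0.20 and 0.14 with 1 calf left out. With 1 calf left out HSPA8 ran from -0.51 to -0.065 and HSPH1 from -0.63 to -0.13, each lowest without calf 23 and highest without calf 21; without calf 24 HSPA8 gave -0.15.

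Of the 9 chaperones 5 were lower in row 1, as were 54.4% of all probes. An unadjusted p under 0.05 for row was found for 1 of 9 chaperones and for 12.9% of all probes, and arrays of the rows did not overlap for 1 of 9 and for 6.93% of all probes. No probe passed an adjusted p of 0.05 for row (0%; smallest adjusted p 0.231 in limma, 1320 probes at an unadjusted p under 0.05), except with normexp background correction, where 92 did and none was a chaperone (smallest adjusted p 0.227 among the 9). A lower WP value in calves 21 and 23 with a higher one in calves 24 and 25 was seen in HSP90AA1 and in 10.4% of all probes, and the opposite in HSPD1 and in 10.6%.

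**Figure D3:**
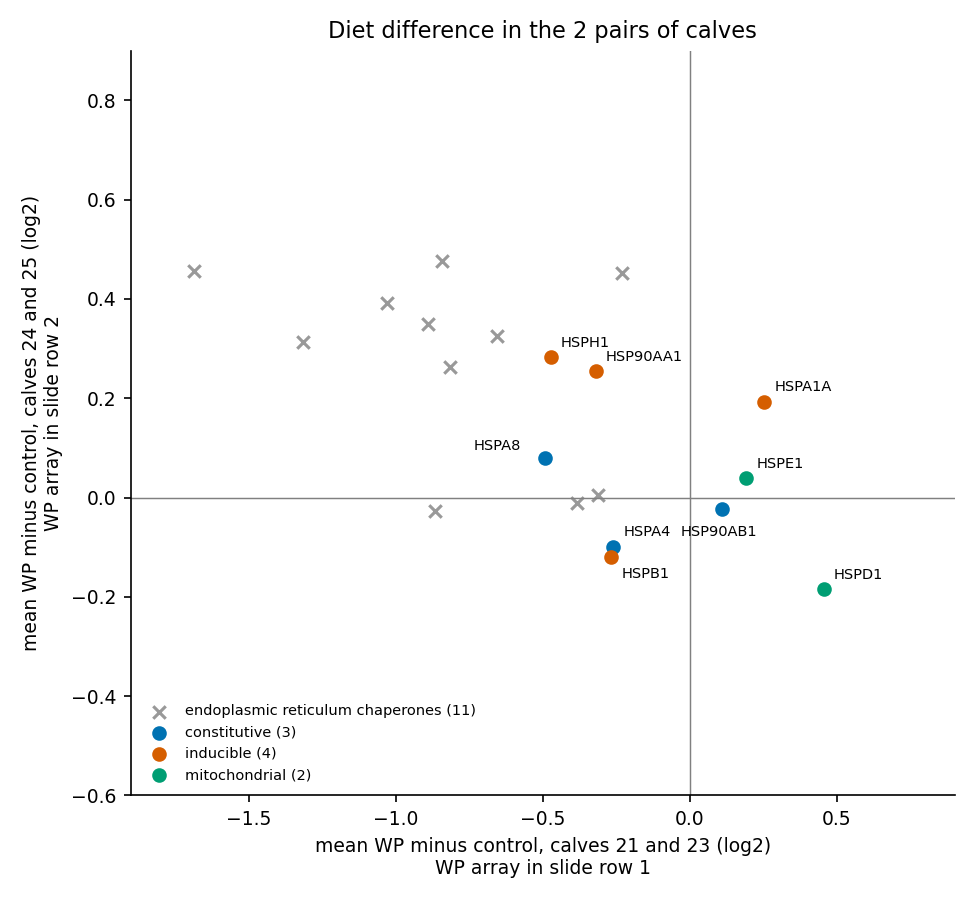
Mean WP minus control (log2) in calves 21 and 23 on the horizontal axis and in calves 24 and 25 on the vertical axis, for the 9 chaperones by class and for 11 endoplasmic reticulum chaperones (crosses). HSPH1, HSP90AA1 and HSPA8 lie at the upper left with most crosses, and HSPD1 lies farthest to the lower right.

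Chaperones of the endoplasmic reticulum, which fold secreted and membrane proteins, had larger row differences. Of 11 tested genes, 11 were lower in row 1, beside 54.4% of all probes. An unadjusted p under 0.05 for row in limma was found for 7, beside 12.9%, and an adjusted one for 0 (smallest 0.305). The rows did not overlap for 7, beside 6.93%. The median row difference of the 11 was -0.54, beside -0.074 for the 9 chaperones and -0.028 for all tested genes. The 11 had a median diet difference of -1.13, -0.55, 0.25 and 0.36 in calves 21, 23, 24 and 25, and -0.27 over the means. Of the 11, 10 were negative for diet, beside 35.6% of all probes, and 0 passed the test. HSPA5, the reticulum's HSP70, gave -1.48, -0.30, 0.43 and 0.27 (mean -0.27 ± 0.86, adjusted p = 0.798). P4HB, a disulfide isomerase and the member of smallest p, gave -0.45 ± 0.54, PDIA3, another of that family, -0.20 ± 0.24, and SDF2L1, found in the reticulum's chaperone complexes, -0.50 ± 1.07 (SD, n = 4; each adjusted p 0.658 to 0.708).

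Markers of other cell types also had row differences, none of which passed the adjusted threshold in limma (smallest adjusted p 0.255). Of 5 tested macrophage markers 3 were lower on the WP diet in calves 21 and 23 and higher in calves 24 and 25, beside 10.4%. An unadjusted p under 0.05 for row was found for 4 of the 5, beside 12.9% of all probes, and these 4 were lower in row 1. CD14, the exception, had a row difference of -0.015. The summed level of the 7 markers with a probe, in units of the array's 75th percentile, was 3.07 to 3.58 in row 1 and 4.09 to 8.77 in row 2, and 3.23 to 8.77 on the control and 3.07 to 6.15 on the WP diet. ITGAM was not well above background on any array. In calf 21 the sum was 8.77 on the control and 3.07 on the WP diet.

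Of 4 tested T cell markers 3 had an unadjusted p under 0.05 for row in limma, beside 12.9% of all probes. They were CD3D (-2.61) and CD3G (-1.39), parts of the T cell receptor complex, and CD8A (0.77). CD3D was well above background on only 1 of 4 WP and 3 of 4 control arrays, so its row difference includes values near background. Of 7 T cell markers with a probe, 2 were well above background on all 8 arrays. Their sums were 0.300 to 0.538 in row 1 and 0.362 to 1.38 in row 2, and 0.300 to 0.988 on the control and 0.327 to 1.38 on the WP diet. COL3A1 (-1.20) and COL1A2 (-1.16), of 9 tested fibroblast markers, had an unadjusted p under 0.05 for row, beside 12.9% of all probes. A negative row difference, beside 54.4% of all probes, was found for 8 of these 9 fibroblast markers. Their sums were 14.1 to 29.5 in row 1 and 18.6 to 55.9 in row 2, and 14.1 to 52.9 on the control and 25.2 to 55.9 on the WP diet, with a median diet difference of 0.61.

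Basal epithelial markers had positive row differences in 7 of 7, from 0.036 for ITGB4 to 0.86 for COL17A1. Thus 0 of the 7 were lower in row 1, beside 54.4% of all probes. For 4 of the 7 the unadjusted p for row in limma was under 0.05, beside 12.9% of all probes. Of these 7, 4 were higher on the WP diet in calves 21 and 23 and lower in calves 24 and 25, beside 10.6%. Their sums were 252.9 to 320.8 in row 1 and 189.3 to 242.5 in row 2. Suprabasal epithelial markers had a median diet difference of -0.94, with 5 of 7 tested negative, beside 35.6% of all probes, and 0 passing. KRT10 (0.50) and DSP (0.063) were positive. For row, 3 of the 7 had an unadjusted p under 0.05 in limma, with both signs: TGM1 (-1.14), IVL (-0.75) and DSG1 (1.90). The suprabasal sums were 107.0 to 210.6 on the control and 44.0 to 117.2 on the WP diet. By row they were 44.0 to 125.8 in row 1 and 69.1 to 210.6 in row 2. DSC1 was above background on no array. In calf 21 that sum was 210.6 on the control and 44.0 on the WP diet. The part of these cell types in the chaperone values was not tested.

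The heat shock factors and cochaperones showed no difference that passed the test. The 4 tested genes were 3 heat shock factors and HSBP1, a protein that binds them, and their median was 0.27. None of the 4 had a negative mean, beside 35.6% of all probes. HSF1, the master regulator of the heat shock response, gave 0.0013 ± 0.080 (SD, n = 4; limma adjusted p = 0.998), with differences of 0.0051, -0.11, 0.073 and 0.039. HSBP1 gave 0.34 ± 0.37, HSF4 0.32 ± 0.44 and HSF2 0.22 ± 0.49. Of 16 tested cochaperones 10 were negative, beside 35.6% of all probes, and 6 positive, with a median of -0.0065 and 0 passing. BAG3, a stress-inducible partner of HSP70, gave 0.019 ± 0.30, with -0.42 in calf 21. BAG4 gave 0.34 ± 0.30 and BAG2, both of the same family, -0.26 ± 0.24, lower in 4 of 4 calves. PTGES3, the HSP90 cochaperone p23, gave 0.27 ± 0.34. Apart from HSF1, BAG3, HSPA9 and HSPA5, the genes named from each chaperone list were its 3 of smallest p for diet. Their shared direction over the 4 calves is thus partly fixed by that choice. Of all probes, 5.41% were lower and 12.0% higher in 4 of 4 calves.

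An unadjusted p under 0.05 was found for 1 of 13 tested chaperonin and prefoldin genes and for 1 of 9 other HSP70, HSP110 and small heat shock genes, beside 6.99% of all probes, and none passed the adjusted threshold. PFDN1, a subunit of prefoldin, which passes new actin and tubulin to the cytosolic chaperonin, was lower on the WP diet in 4 of 4 calves, with differences of -0.56, -0.21, -0.45 and -0.49 (mean -0.43 ± 0.15, SD, n = 4; limma adjusted p = 0.658). CCT7 and CCT6A, subunits of that chaperonin, gave -0.30 ± 0.29 and -0.18 ± 0.19, each lower in 4 of 4 calves. These 3 were named for their small p, and 5.41% of all probes were lower in 4 of 4. Of the 13 tested genes of this list 10 were negative (median -0.11), beside 35.6% of all probes. HSPA12B, a distant HSP70 relative found in endothelium, was 0.069, 1.85, 1.58 and 0.93 higher on the WP diet. Its mean difference was 1.11 ± 0.79 (SD, n = 4, limma adjusted p = 0.658). HSPA12B was dim, with mean levels of -3.89 on the control and -2.79 on the WP diet, though well above background on 4 of 4 arrays of each. The WP array of calf 24, behind the value of 1.58, had the highest negative control signal. Endothelial markers had a median of 0.42, with 7 of 7 tested positive and 0 negative, beside 35.6% negative of all probes. By calf their medians were -0.38, 1.56, 0.19 and 0.45 in calves 21, 23, 24 and 25. Their summed level was 3.79 to 6.52 on the control and 4.85 to 9.07 on the WP diet, and CDH5 was above background on no array. Smooth muscle markers (4 of 4 tested, median 0.57) and fibroblast markers (8 of 9, median 0.61) were positive as well. The part of these cell types in the HSPA12B value was not tested.

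In the same list of other HSP70, HSP110 and small heat shock genes, 6 of 9 tested were positive (median 0.15) and 3 negative, beside 35.6% negative of all probes. HSPA13, a microsomal HSP70, gave 0.39 ± 0.30, higher in 4 of 4 calves, and CRYAB, the small heat shock protein alpha B crystallin, -0.37 ± 0.38. Of 12 mitochondrial chaperones and proteases 8 were negative, beside 35.6% of all probes, and 0 passed (median -0.032). TRAP1, the mitochondrial HSP90, gave -0.25 ± 0.14 and CLPB, a disaggregase, -0.15 ± 0.039, both lower in 4 of 4 calves, HTRA2, a protease, 0.17 ± 0.14, and HSPA9, the mitochondrial HSP70, -0.077 ± 0.28.

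**Figure D4:**
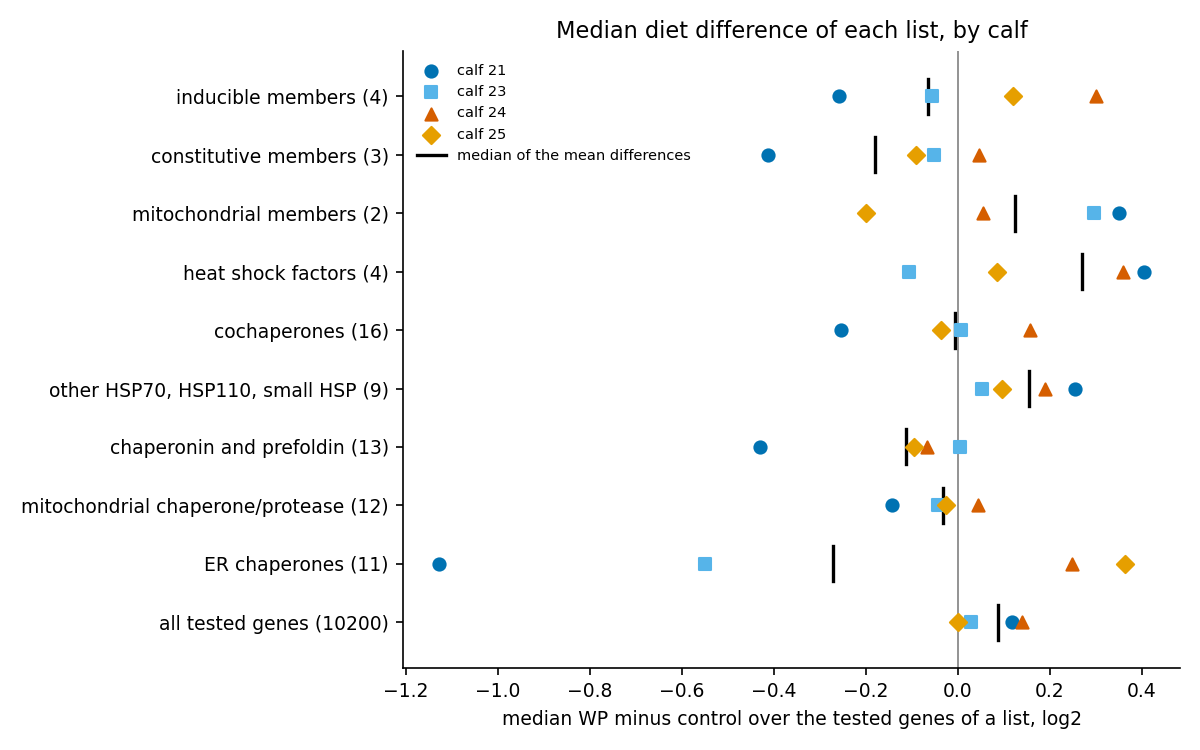
Median WP minus control (log2) over the tested genes of each list, by calf (points), with the median of the mean differences as a bar; the number of tested genes is in brackets. Calf 21 lies lowest for the inducible and constitutive chaperones, the cochaperones, the chaperonin list, the mitochondrial list and, at -1.13, the endoplasmic reticulum chaperones (ER), and highest for the mitochondrial pair, the heat shock factors and the other HSP70 and small heat shock genes.

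For 3 chaperones the 5 genes of most similar level over the 8 arrays were taken from 10158 tested genes, by Pearson's r and as a description, since the 8 arrays come from 4 calves and share their scaling. For HSPA1A they were CLN3 (r = 0.959), EXTL2 (0.937), GALNT11 (0.931), PPM1M (0.927) and CBX6 (0.913). For HSPH1 they were TIMM10 (r = 0.948), STAM (0.943), MATN1 (0.942), EHD4 (0.940) and RAP1B (0.938). For HSPD1 they were NAP1L1 (r = 0.984), ARHGEF2 (0.967), NUCKS1 (0.961), ZNF326 (0.956) and TSPAN4 (0.949). No chaperone of the set was among the 5 nearest genes of any of the 3.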

How the data were processed

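RNA was labelled with Cy3 from 500 ng of total RNA per the labels, and hybridised to 8 single-colour Agilent arrays on 1 slide. The deposited scanner files hold spot intensity, with a processed signal already corrected for background, written by Feature Extraction. Per the file headers its version was 11.0.1.1, while 9.5 stands in the submitters' processing notes. Log2 values make up the authors' deposited table. Compared with the scanner files, each column is the log2 processed signal shifted by a constant (slopes 0.99998 to 1.00, column medians -3.07 to -2.26), so scale, centring and direction are settled, and it served as an alternative.

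From the scanner files, 536 control spots per array and 97 spots flagged as outliers were left out, log2 signals were averaged per probe, and the 75th percentile of each array was subtracted. Tests took the 10236 of 15008 probes that 4 or more of the 8 arrays placed well above background, and were run with limma 3.58.1 in R 4.3.3, two-sided, with calf as a block and p-values adjusted by Benjamini-Hochberg over all of them. Numbers of calves pair the samples because they name the same animal. After the diet means were removed, both arrays of a calf correlated by 0.0090, 0.20, 0.060 and 0.048 in calves 21, 23, 24 and 25. Each SD describes the 4 differences within calves, each SE the fitted estimate. The fit was tested on simulated data.

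Members were taken by the gene name in the scanner files, the brightest probe per gene. Named beside the members are HSF1, BAG3, HSPA9, HSPA5, the 3 genes of smallest p in each chaperone list, since none passed, and the 5 genes most like HSPA1A, HSPH1 and HSPD1, leaving out uncharacterised names. In the search for like genes, 8068 of 10158 genes were named by accession through RefSeq (ARS-UCD 2.0), used for names only. Members and lists were chosen with earlier results of these data known.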

Additional observations from a re-analysis of the deposited data

Results flagged for a closer look

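HSPE1 on the WP array of calf 25 was flagged as far from the other 3 WP arrays, at a level of 6.31, against 6.45 to 6.46. It was the one flag among 27 groups of 4 values checked for the 9 chaperones, and chance flags about 5% of such groups.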

How the results depend on the processing

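Over 14 alternatives 0 probes passed the adjusted threshold for diet, with smallest adjusted p-values from 0.346 to 0.844. With no replicate block, 0 probes passed as well (smallest adjusted p 0.353, 785 at an unadjusted p under 0.05), and the block changed no call of a chaperone. The median over the 9 chaperones was -0.033, -0.18 within slide row 1, and -0.14 to 0.035 with 1 calf left out (lowest without calf 24, highest without calf 21). Of 135 alternative values of single chaperones for diet 124 kept their direction, and of 90 for slide row 82 did; none passed the threshold. For diet, the sign turned within slide row 2 for HSP90AA1 (0.11), HSP90AB1 (-0.10), HSPA1A (-0.078) and HSPH1 (0.020), with normexp for HSP90AB1 (-0.049) and HSPB1 (0.033), and with quantile scaling for HSP90AA1 (0.015). With 1 calf left out, HSP90AA1 ran from -0.14 to 0.12, HSPA8 from -0.39 to 0.035 and HSPH1 from -0.26 to 0.20. For row, it turned with normexp for HSPA1A (-0.011), HSPB1 (0.071) and HSPE1 (-0.013), with quantile scaling for HSP90AB1 (-0.056) and HSPB1 (0.19), and with cyclic loess for HSPA1A (-0.016), and with 1 calf left out HSPA1A ran from -0.032 to 0.093 and HSPB1 from -0.20 to 0.049. With normexp 92 probes passed for row against 0, and 20 between calves against 1, which was 0 to 2 with 1 calf left out; the cause was not tested. HSPA1A between calves had adjusted p-values of 0.0842 with normexp and 0.393 to 0.999 otherwise. Each chaperone had 1 probe, so the choice of probe changed nothing. Only 4 calves, and dim signal for HSPB1, limit the precision.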
